A study of Homo sapiens with 8 samples.

Results

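Interferons and cytokines of the IL-6 family act on cells through receptors that carry Janus kinases. The kinases phosphorylate STAT proteins, which enter the nucleus, and STAT2 together with IRF9 belongs to the complex that binds interferon-stimulated response elements after type I interferon. IRF3 and IRF7 act earlier, at the switching on of interferon genes after nucleic acid sensing, IRF1 is itself induced by interferon gamma, and SOCS1 is an inhibitor that binds the kinases and closes the loop. In the liver these routes are known from antiviral defence and from the response of stellate cells to inflammation.

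The 9 genes described here are the transcription factors STAT2, STAT3, IRF1, IRF3, IRF7 and IRF9, the kinases JAK1 and JAK2, and the inhibitor SOCS1. They were chosen by name as STAT and IRF factors with their kinases and 1 inhibitor, and all 9 were found among the 25369 genes of the table. All 9 also passed the filter on low counts, which left 14570 genes for the tests.

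RNA was measured by paired-end sequencing in LX-2, an immortalized human hepatic stellate cell line, labelled wild type. Cells were grown on fibronectin-coated polyacrylamide hydrogels of 2 kPa (soft matrix) or 40 kPa (stiff matrix) and harvested at day 2 or day 4, so that by the labels the groups differed in stiffness and time alone. Each of the 4 conditions has 2 libraries, 8 in all, and the comparisons ask what a stiff support and time in culture do to expression. The model is 1 cell line without other liver cells. The labels do not say whether replicates were separate cultures, while the study describes them as independent experiments, and p-values measure the spread between these libraries.

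Total counts ran from 19955975 to 27263935 per library. The sequenced cells carried collagen and mesenchymal transcripts, with 7 of 10 stellate cell markers at or above 1 CPM (counts scaled to the library total). DES and LRAT, which mark stellate cells at rest, were near 0, with 4 and 1 counts in all libraries together. None of 5 hepatocyte markers reached 1 CPM, and of 8 leukocyte markers 4 did, mostly CD68, with CD3E at 0. The summed leukocyte markers lay between 92.0 and 97.4 CPM on the soft matrix and between 108 and 110 CPM on the stiff matrix at day 2. At day 4 the sums were 107 to 110 CPM on the soft matrix and 118 to 127 CPM on the stiff matrix, and their part in the results was not tested.

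The pair of stiff-matrix libraries at day 4 stood apart. A chi-square test of the counts of 2 replicates gave a statistic per degree of freedom of 112 in that condition, against 3.38 to 18.9 in the other 3. Results at day 4 are therefore also given with each of these libraries left out.

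The promoters of 3 of the 9 genes hold a letter match to an element that interferon-activated factors bind. They are printed because the calls described below fall on these 3 genes. The sequences come from RefSeq, build GRCh38.p14, and were searched over the 250 bases before the gene start on both strands. The first motif was TTCNNNGAA, the gamma-activated site read by STAT dimers, which is the same on both strands. The second was the core of the interferon-stimulated response element, GAAA and GAAA with any 2 bases between them. Capitals mark the match.
IRF1: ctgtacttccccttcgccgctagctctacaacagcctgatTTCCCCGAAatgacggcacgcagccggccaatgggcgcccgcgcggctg
IRF9: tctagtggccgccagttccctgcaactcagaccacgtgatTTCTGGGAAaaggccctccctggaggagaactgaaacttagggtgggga
SOCS1: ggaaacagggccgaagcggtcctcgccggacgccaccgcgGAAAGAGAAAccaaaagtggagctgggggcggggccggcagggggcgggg
The IRF1 stretch lies at chr5:132490849-132490937 on the minus strand, and its match begins 124 bases before the start. That of IRF9 lies at chr14:24161162-24161250 on the plus strand, with the match 63 bases before the start. In SOCS1, at chr16:11256268-11256357 on the minus strand, the response element core begins 113 bases before the start.

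Of the 9 genes, 7 had a promoter entry, IRF3 and IRF7 being those without. The gamma-activated motif was found in 2 of the 7 and the response element core in 1, while 6.78% and 3.07% of 27305 promoters of the same length hold them. The promoters of STAT2, STAT3, JAK1 and JAK2 hold neither string in this window. No match overlapped another. A match of letters describes the sequence and does not show that a factor binds there.

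On the build of the deposited files, hg19 (GRCh37), the GENCODE annotation places IRF1 at chr5:131776132-131844411 (minus strand), IRF9 at chr14:24630443-24637252 (plus strand) and SOCS1 at chr16:11348274-11350061 (minus strand). On the opposite strand, exons of IRF1 overlap those of IRF1-AS1 and ENSG00000283782, and exons of IRF3, IRF9 and JAK1 overlap those of BCL2L12, ENSG00000289757 and RAVER2. On the same strand, exons of IRF9 overlap those of ENSG00000259529, and exons of JAK1 those of LINC01359 and RP4-535B20.1. The strand setting of the counting is not given in the sources used here, so reads from the opposite-strand partners cannot be told apart from the genes' own, and for the same-strand ones no strand setting would separate them. STAT2, STAT3, IRF7, JAK2 and SOCS1 have no such overlap.

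Levels between genes were compared as FPKM, in which fragments are scaled to the size of the library and the length of the transcript. JAK1, the kinase shared by interferon and IL-6 family receptors, had the highest mean over the 8 libraries, 37.9 FPKM, with a range of 24.3 to 48.2. It was followed by IRF3 with 27.8 FPKM (18.3 to 41.5) and by STAT3, the factor of IL-6 signalling, with 19.4 FPKM (16.1 to 21.4). Among tested genes these 3 stood at percentiles 85.2, 80.1 and 73.3.

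A middle group held IRF9 with 13.1 FPKM (8.20 to 18.3), STAT2 with 8.41 FPKM (6.81 to 10.1), IRF1 with 8.26 FPKM (4.81 to 11.0) and IRF7 with 5.59 FPKM (2.46 to 8.30). JAK2, which serves the interferon gamma receptor, and SOCS1 were lowest, with 3.16 FPKM (2.34 to 4.21) and 2.96 FPKM (1.28 to 5.83). SOCS1 was counted 32 to 202 times per library, the fewest of the 9, and its values carry the widest counting error.

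The order of neighbouring levels did not hold in every library. JAK1 exceeded IRF3, IRF3 exceeded STAT3 and STAT3 exceeded IRF9 in 7 of 8 libraries each, and IRF9 exceeded STAT2 in 8 of 8. STAT2 and IRF1 could not be ranked over all libraries, since IRF1 was the higher of the pair in the 4 soft-matrix libraries and STAT2 in the 4 stiff-matrix ones. JAK2 and SOCS1 changed places with time: SOCS1 was higher in the 4 libraries of day 2 and JAK2 in the 4 of day 4.

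**Figure D1:**
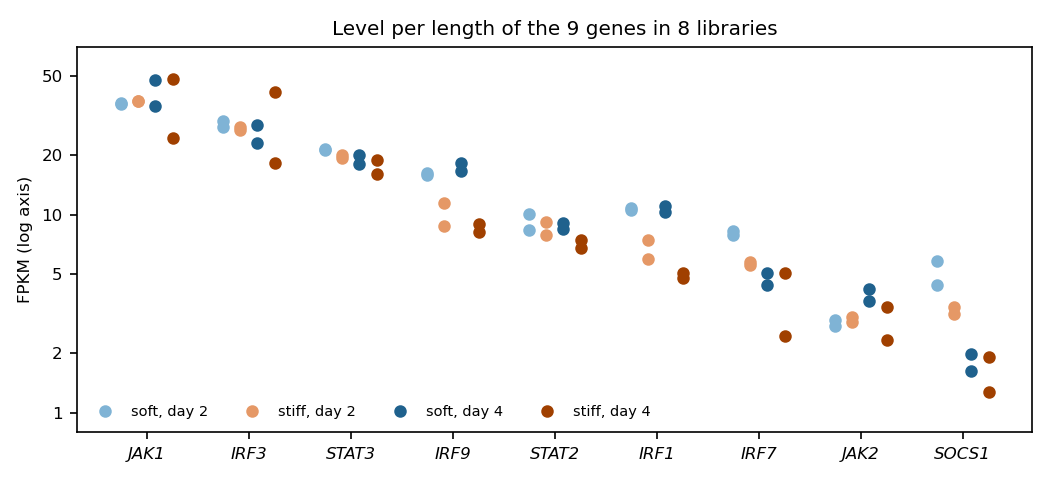
Level of each gene per transcript length (FPKM, log axis) in the 8 libraries, 1 point per library, coloured by condition and ordered by the mean. JAK1, IRF3 and STAT3 lie highest, and the points of IRF1 and IRF9 split by matrix while those of SOCS1 split by day.

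Differences between conditions were tested on counts with edgeR's quasi-likelihood model over all 8 libraries, and values per library are CPM scaled by TMM factors. Log2 fold changes are stiff relative to soft, or day 4 relative to day 2. In bulk RNA, fewer cells expressing a gene and less RNA per cell cannot be told apart.

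The stiffness comparison was led by IRF1, the factor induced by interferon gamma. At day 2 it measured 38.5 and 37.4 CPM in the soft-matrix libraries and 21.4 and 26.4 CPM in the stiff-matrix libraries. At day 4 the soft-matrix values were 39.5 and 37.5 CPM and the stiff-matrix values 17.2 and 18.4 CPM. The 4 soft-matrix libraries thus lay between 37.4 and 39.5 CPM, above all 4 stiff-matrix libraries.

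The log2 fold change of IRF1 at day 4 was -1.11 (SE 0.149, 95% interval -1.46 to -0.77), a stiff-matrix level of 46.3% of the soft one, and it passed the test (edgeR, Benjamini-Hochberg adjusted p = 0.0362). It was 1 of the 9 genes to do so, against 0.247% of all 14570 genes, 36 in number. At day 2 the value was -0.67 (SE 0.146, 95% interval -1.01 to -0.33), 63.0% of the soft-matrix level, with an unadjusted p of 0.00194 and an edgeR adjusted p of 0.833. Averaged over both days it was -0.89 (SE 0.104), with an edgeR adjusted p of 0.0175.

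IRF9, the DNA-binding partner of STAT2, followed the same course. Its soft-matrix libraries held 26.6 and 27.3 CPM at day 2 and 30.9 and 28.5 CPM at day 4, and its stiff-matrix libraries 14.8 and 19.2 CPM at day 2 and 15.2 and 13.9 CPM at day 4. The soft and stiff libraries did not overlap at either day. The condition means were 26.98 ± 0.466 CPM (soft) and 17.02 ± 3.11 CPM (stiff) at day 2, and 29.7 ± 1.76 CPM (soft) and 14.6 ± 0.909 CPM (stiff) at day 4 (SD, n = 2 each).

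For IRF9 the log2 fold change was -0.66 at day 2 (SE 0.163, unadjusted p 0.00369, edgeR adjusted p 0.976) and -1.03 at day 4 (SE 0.166, 95% interval -1.41 to -0.64). The day 4 value, 49.1% of the soft-matrix level, missed the threshold with edgeR (Benjamini-Hochberg adjusted p = 0.0775) and passed it with DESeq2 (adjusted p = 0.000122). DESeq2 was the 1 setting to call it among 12 other settings. Over both days the change was -0.84 (SE 0.116) and passed the edgeR test with an adjusted p of 0.0319. IRF1 and IRF9 were thus the 2 of 9 genes called in the mean of both days, where 0.426% of all genes were called. Of the 8 fits with 1 library left out, 2 kept each of these calls, those without a stiff-matrix library of day 4, and the edgeR adjusted p reached 0.167 for IRF1 and 0.253 for IRF9. They were also the 2 of 9 with both stiff-matrix libraries below both soft-matrix ones at each day, an arrangement that 6.14% of all tested genes had. Taken by day, both stiff-matrix libraries lay below both soft-matrix ones for 6 members at day 2 and 4 at day 4, against 22.4% and 14% of all genes.

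The other factors moved less between matrices. STAT2 gave 38.1 and 45.8 CPM in soft-matrix cultures against 35.9 and 41.8 CPM in stiff-matrix cultures at day 2, which overlap, and 38.6 and 42.3 against 34.2 and 31.4 CPM at day 4, which do not. Its log2 fold changes were -0.11 (95% interval -0.47 to 0.25) and -0.30 (95% interval -0.66 to 0.06), neither called. STAT3 differed by -0.12 at each day, with 95% intervals of -0.43 to 0.19 at both. Its libraries ranged from 81.3 to 106 CPM over all conditions, the narrowest relative range of the 9 genes.

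IRF7, an amplifier of type I interferon production that is itself interferon-induced, measured 17.04 and 17.7 CPM in soft-matrix libraries of day 2 and 11.97 and 12.4 CPM in the stiff-matrix ones. The log2 fold change of -0.51 (SE 0.288, 95% interval -1.18 to 0.15) did not pass although these libraries were apart. At day 4 the soft-matrix libraries held 11.0 and 9.65 CPM, and those on the stiff matrix 5.30 and 11.1 CPM, 1 below and 1 above both. Its stiffness difference at day 4 depended on which library was kept, with log2 fold changes of 0.11 without replicate 1 and -0.95 without replicate 2.

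IRF3, which resides in the cytoplasm until sensing of viral nucleic acid, gave 59.8 and 55.4 CPM at day 2 in soft-matrix and 53.6 and 55.4 CPM in stiff-matrix libraries, the upper stiff value lying just under the lower soft one. At day 4 it gave 57.2 and 47.4 CPM on the soft matrix and 37.03 and 84.6 CPM on the stiff matrix, so that the stiff-matrix replicates enclosed the soft ones. The log2 fold changes were -0.08 (95% interval -0.84 to 0.67) and 0.22 (95% interval -0.54 to 0.97), and the latter became 0.70 without replicate 1 and -0.49 without replicate 2 of the stiff matrix.

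Of the kinases, JAK1 lay between 183 and 189 CPM in all 4 libraries of day 2, with a log2 fold change of 0.04 (95% interval -0.64 to 0.72). At day 4 it measured 179 and 248 CPM in soft-matrix and 245 and 124 CPM in stiff-matrix libraries, and the difference was -0.21 (95% interval -0.89 to 0.47). JAK2 held 14.5 and 15.6 CPM at day 2 where the matrix was soft and 15.3 and 16.1 CPM where it was stiff. At day 4 it held 19.6 and 22.7 against 18.3 and 12.6 CPM, with both stiff libraries below both soft ones. Its day 4 change of -0.45 (SE 0.199) had an unadjusted p of 0.0535 and was not called by edgeR.

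SOCS1, which inhibits the kinases and is induced by the STATs it restrains, gave 7.11 and 5.36 CPM in soft-matrix libraries of day 2 and 4.16 and 3.85 CPM in stiff-matrix ones. Its log2 fold change of -0.64 (SE 0.249) had an unadjusted p of 0.0339 and an edgeR adjusted p of 1. At day 4 the values were 2.43 and 2.03 CPM (soft) and 1.57 and 2.36 CPM (stiff), which overlap, with a change of -0.19 (95% interval -0.86 to 0.48).

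**Figure D2:**
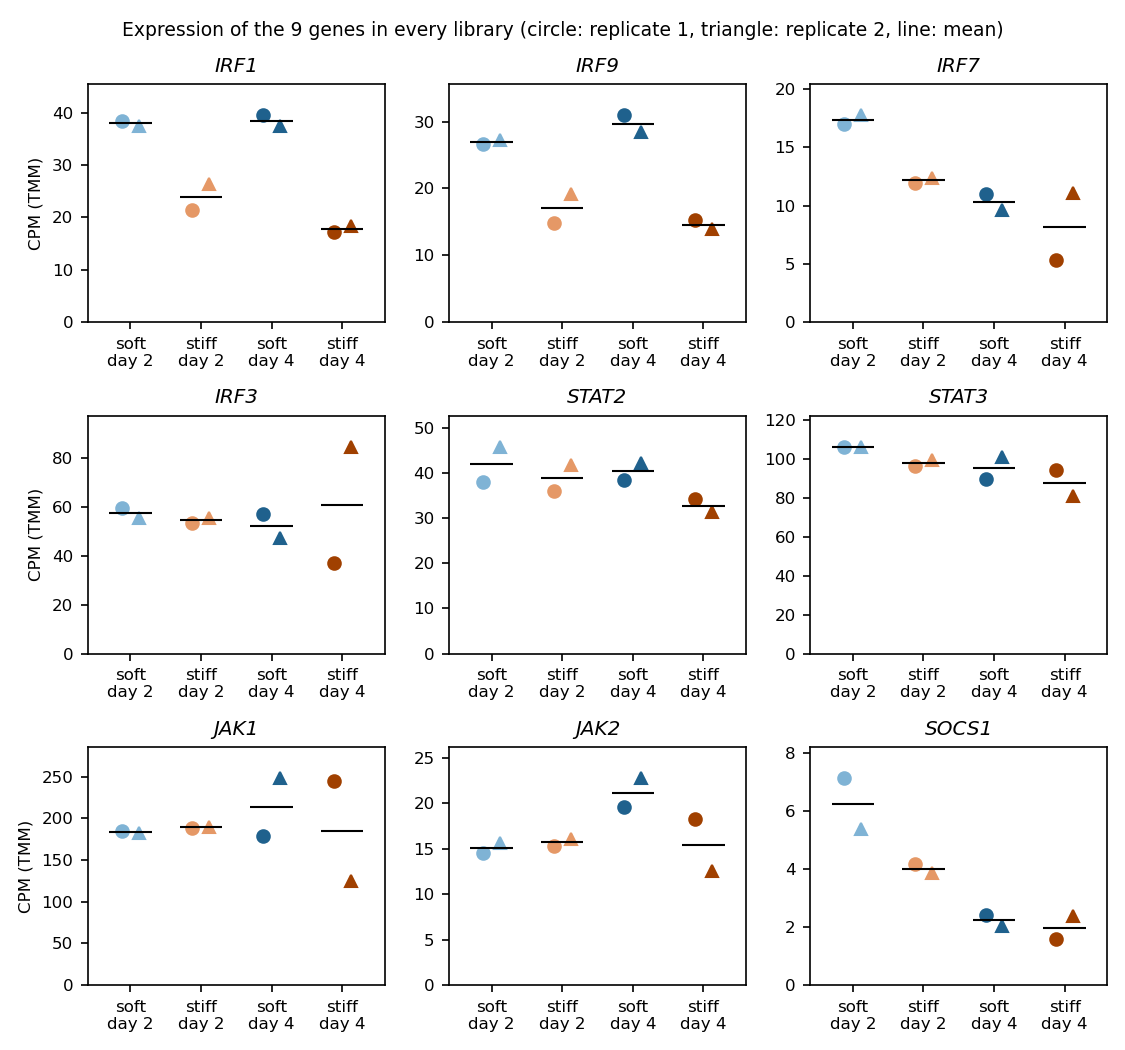
CPM of each gene in the 8 libraries by condition, each panel with its own axis from 0, with a circle for replicate 1, a triangle for replicate 2 and a line at the mean. IRF1 and IRF9 are lower in all stiff-matrix libraries, SOCS1 is lower in all day 4 libraries, and IRF3, IRF7 and JAK1 spread widely between the stiff-matrix replicates of day 4.

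Counted over the list, no member passed the edgeR test at day 2, where 0% of all genes did. At an unadjusted p under 0.05, 3 members (IRF1, IRF9 and SOCS1) were lower at day 2, against 1.78% of all genes in that direction, and DESeq2 called 31 genes and none of the 9. At day 4, 2 members were lower at that level, against 4.32% of all genes. Log2 fold changes were below 0 for 7 of 9 genes at day 2 and 8 of 9 at day 4, against 48.3% and 46.6% of all genes. The median of the 9 was -0.12 at day 2 and -0.30 at day 4, while the medians of all tested genes were 0.01 and 0.02.

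Whether the effect of stiffness changed with time was tested as an interaction. No member was called, 0% of all genes were, and none of the 9 had an unadjusted p under 0.05, a level that 1.95% of all genes reached. DESeq2 called 3 genes and no member. The interaction was -0.44 for IRF1 (95% interval -0.93 to 0.04) and -0.36 for IRF9 (95% interval -0.90 to 0.17), both intervals including 0.

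**Figure D3:**
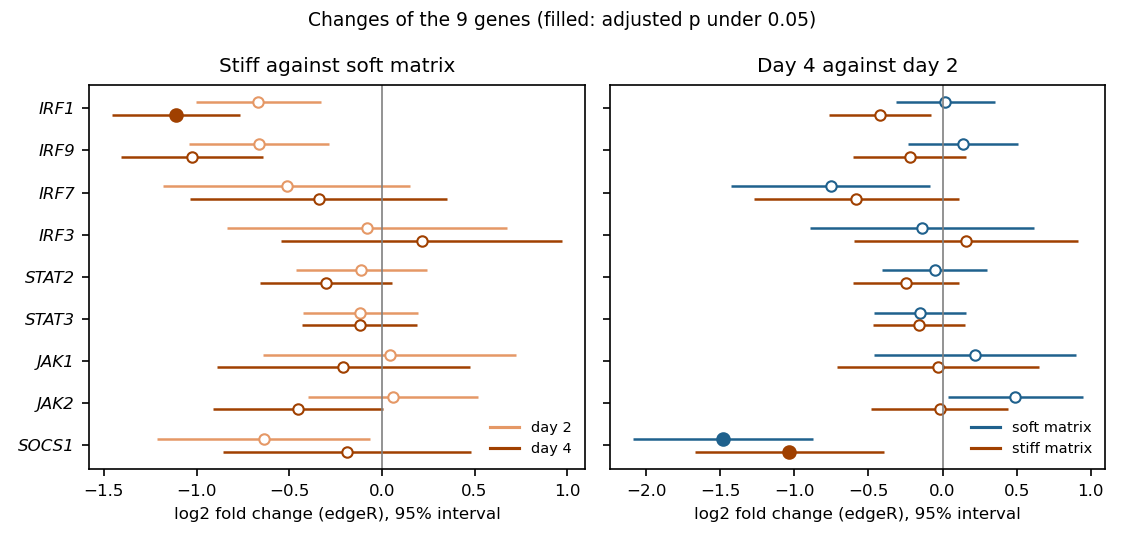
Log2 fold changes of the 9 genes with 95% intervals from the edgeR fit, stiff against soft matrix at each day on the left and day 4 against day 2 on each matrix on the right, filled where the adjusted p was under 0.05. IRF1 at day 4 is the filled point on the left, and SOCS1 is filled for both matrices on the right.

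Without replicate 1 of the stiff matrix at day 4, the day 4 log2 fold changes of IRF1 and IRF9 were -1.06 and -1.08. Without replicate 2 they were -1.15 and -0.95. In such a fit the remaining stiff library of day 4 is assumed to vary like those of the other groups. The number of all genes called rose at both days in these fits, so calls in them are not read as particular to IRF1 and IRF9.

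The day 4 changes of some other members depended on which of these libraries was left out. Without replicate 1, IRF3, JAK1 and JAK2 gave log2 fold changes of 0.70, -0.77 and -0.74. Without replicate 2, IRF7 gave -0.95. For IRF1 the call at day 4 was lost when any 1 of the 6 libraries of the other 3 conditions was left out, with edgeR adjusted p up to 0.335 while its log2 fold change stayed between -1.15 and -1.06 with any of the 8 libraries left out. The fit of the 4 day 4 libraries alone called no gene at day 4, with an edgeR adjusted p of 0.504 for IRF1. By contrast, the fit of the 4 day 2 libraries alone called IRF1, IRF7, IRF9 and SOCS1 at day 2, against 667 of 14290 genes.

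How far the stiff-matrix replicates of day 4 lay apart differed among the 9 genes. In replicate 2, IRF3 was 2.28 times, IRF7 2.08 times and SOCS1 1.503 times the level of replicate 1. JAK1 and JAK2 were higher in replicate 1, by 1.97 and 1.46 times. IRF1, IRF9, STAT2 and STAT3 differed by 1.07, 1.09, 1.09 and 1.16 times.

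The 9 genes did not spread more than others in that condition. The mean size of their log2 difference between replicates was 0.542 there, against 0.570 over all tested genes. In the other conditions it was 0.114 (soft, day 2), 0.135 (stiff, day 2) and 0.210 (soft, day 4).

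**Figure D4:**
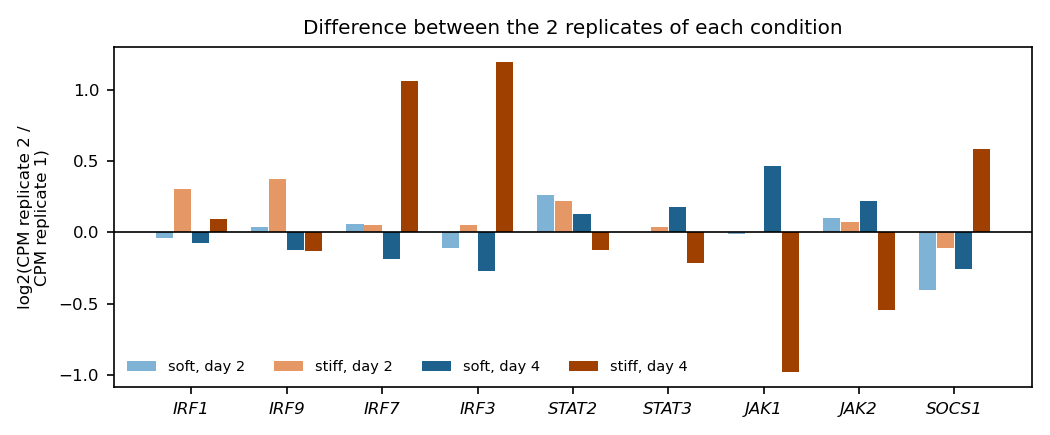
Log2 ratio of replicate 2 to replicate 1 for each gene, with 1 bar per condition starting at 0. The longest bars belong to the stiff matrix at day 4, upward for IRF3 and IRF7 and downward for JAK1, while those of IRF1, IRF9 and STAT2 stay short in that condition.

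Time in culture separated the members differently. SOCS1 fell by 1.48 on the log2 scale from day 2 to day 4 on the soft matrix (SE 0.263, edgeR adjusted p = 0.00722) and by 1.03 on the stiff matrix (SE 0.276, edgeR adjusted p = 0.0287). From day 2 to day 4 the mean went from 6.24 ± 1.24 to 2.23 ± 0.281 CPM on soft and from 4.00 ± 0.214 to 1.97 ± 0.558 CPM on stiff support (SD, n = 2 each), with no overlap between days. SOCS1 was the 1 member of 9 called on each matrix, while 27.4% of all genes were called on the soft and 27.6% on the stiff matrix. Both day 4 libraries lay below both day 2 libraries for 3 members on the soft and 5 on the stiff matrix, against 36.7% and 31.1% of all genes.

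IRF7 gave a time difference of -0.75 on the soft matrix (SE 0.291, edgeR adjusted p = 0.0901) and -0.58 on the stiff matrix (SE 0.298, edgeR adjusted p = 0.18), with all day 4 libraries below all day 2 libraries of the same matrix. JAK2 measured 0.49 higher at day 4 on the soft matrix (SE 0.197, edgeR adjusted p = 0.101) and -0.02 on the stiff. IRF1 stayed at 0.02 on the soft matrix (95% interval -0.32 to 0.36) and gave -0.42 on the stiff one (95% interval -0.77 to -0.08, edgeR adjusted p = 0.0681). IRF9 gave 0.14 and -0.22 and was called on neither matrix.

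Upstream of the 9 genes, IFNB1, IFNG and the interferon lambda genes IFNL1, IFNL2 and IFNL3 had 0 counts in every library, and IFNA1 had 6 counts in all. Of 12 ligands listed, 4 could be tested, namely IFNE, IL6, IL11 and LIF. IFNE, a type I interferon of epithelia, was counted 21 to 41 times per library, with condition means from 1.21 to 1.59 CPM, and was called in no comparison. IL6, whose receptor signals through JAK1 and STAT3, was lower on the stiff matrix in the mean of both days, with a log2 fold change of -1.19 (SE 0.171, edgeR adjusted p = 0.0387). Its condition means were 2.63 ± 0.261 and 1.05 ± 0.176 CPM at day 2 and 4.35 ± 0.284 and 2.10 ± 0.124 CPM at day 4, soft before stiff (SD, n = 2 each). IL6 was also the 1 ligand called over time, higher at day 4 by 0.73 on the soft and 0.997 on the stiff matrix (edgeR adjusted p = 0.0452 and 0.0265).

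All 10 receptor chains listed were tested and none was called between matrices, at an unadjusted p under 0.05 none at either day. IFNAR1 and IFNGR1, which bind type I interferon and interferon gamma, rose with time on the soft matrix by log2 0.57 and 0.44 (edgeR adjusted p = 0.0184 and 0.0463). IL10RB, the shared chain of the interferon lambda and IL-10 receptors, rose on both, by 0.63 and 0.67. Of all genes, 14.1% were called higher over time on the soft and 14% on the stiff matrix. TYK2, the kinase partner of JAK1 on the type I receptor, fell with time by 1.04 on the soft and 1.02 on the stiff matrix (edgeR adjusted p = 0.00235 and 0.00247). Its stiffness differences were -0.06 at day 2 and -0.04 at day 4, and JAK3, with 2 counts in all, was not tested.

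Of the other STAT genes listed, 4 of 5 were tested and none was called between matrices. Over time 1 rose and 2 fell on the soft matrix and 2 fell on the stiff. For comparison, the soft matrix had 14.1% of all genes called higher with time and 13.3% lower, the stiff one 14% and 13.7%. STAT6, the factor of IL-4 signalling, fell with time by 0.66 on the soft and 0.91 on the stiff matrix (edgeR adjusted p = 0.0169 and 0.0061). Other IRF genes and partners of IRF2 gave 6 tested of 8 and none called between matrices, while IRF2BPL fell with time by 0.59 on the soft and 1.01 on the stiff matrix (edgeR adjusted p = 0.0323 and 0.00566). Of 16 further inhibitors 15 were tested, with none called between matrices and median differences of -0.02 at day 2 and -0.14 at day 4. Over time 1 of the 15 rose and 1 fell on the soft matrix, and 2 rose and 3 fell on the stiff, with the same shares of all genes beside them. SOCS3, a brake on STAT3, fell with time on the stiff matrix by 0.87 (edgeR adjusted p = 0.00557), and SOCS5 rose on the soft by 0.86 (edgeR adjusted p = 0.0134).

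Genes that activate IRF3 and IRF7, among them the kinases TBK1 and IKBKE, numbered 13, all tested, and none was called between matrices. Over time TANK, AZI2 and IRAK4 rose and TBKBP1, TICAM1 and IRAK1 fell on the soft matrix, and the same genes apart from IRAK4 were called in the same directions on the stiff one. Over all genes, 14.1% were called higher and 13.3% lower at day 4 where the matrix was soft, and 14% and 13.7% where it was stiff. Of these, IRAK1, a kinase of Toll-like receptor signalling, gave -0.89 and -0.92 on the soft and stiff matrix (edgeR adjusted p = 0.00469 and 0.00437). Among 13 genes known as STAT3 targets, FOS was the 1 called between matrices at day 4, higher by 2.06 (edgeR adjusted p = 0.0106), and the list's median was -0.07. Over time 1 of these targets rose and 2 fell on the soft matrix, and 3 rose and 3 fell on the stiff.

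Downstream, 9 of the tested type I interferon target genes were called lower on the stiff matrix at day 4 and 0 at day 2. Of 35 listed, 34 were tested, 33 had a log2 fold change below 0 at day 2 and all 34 at day 4, against 48.3% and 46.6% of all genes. Their medians were -0.75 and -1.22, and those of all genes 0.01 and 0.02. Those called at day 4 were IFI44, IFI44L, IFIT1, IFIT2, IFIT3, OAS1, OAS2, OASL and EPSTI1, with 0 called higher, against 0.213% of all genes called lower. In the mean of both days 11 were called lower, against 0.35% of all genes. With at least 10 counts in every library, 30 genes of the list remained. Of these, 7 were called lower at day 4 and 9 in the mean of both days, against 27 and 48 of 12867 genes. No gene of the list was called at day 2 by edgeR, where 18 were lower at an unadjusted p under 0.05 (1.78% of all genes) and DESeq2 called 5 lower.

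OASL, a member of the oligoadenylate synthetase family, measured 11.9 ± 0.385 CPM (soft) and 4.13 ± 1.21 CPM (stiff) at day 2, and 22.3 ± 1.19 CPM (soft) and 2.20 ± 0.0151 CPM (stiff) at day 4 (SD, n = 2 each). IFIT3, an interferon-induced antiviral protein, gave 35.0 ± 0.414 and 20.9 ± 1.21 CPM at day 2 and 68.8 ± 5.79 and 22.8 ± 1.56 CPM at day 4. Its day 4 change was -1.60 (SE 0.138, edgeR adjusted p = 0.0106). ISG15, a ubiquitin-like protein, had means of 50.2 ± 12.4 and 30.4 ± 19.4 CPM at day 4 and was not called (edgeR adjusted p = 0.821).

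The count of 9 called at day 4 moved with the libraries. It was 21 with DESeq2, against 126 of 14570 genes called lower, and 0 in the fit of the 4 day 4 libraries alone, where no gene was called. Leaving out either stiff-matrix library of day 4 raised it, and leaving out either soft-matrix library of either day lowered it. The number of all genes called lower moved in the same directions, so these moves were not particular to the list. In the same alternatives the number of genes below 0 at day 4 stayed between 31 and 34 of those tested.

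Interferon gamma targets gave 14 tested of 18, with 13 below 0 at day 2 and 14 at day 4, against 48.3% and 46.6% of all genes. Their medians were -0.63 and -0.57. Over all genes, 0.213% were called lower at day 4, and 1 of this list was. CXCL10, a chemokine that attracts T cells, was the 1 called at day 4 (edgeR adjusted p = 0.0331), at 2.28 ± 0.412 CPM in soft-matrix and 0.0533 ± 0.00600 CPM in stiff-matrix libraries (SD, n = 2 each). It passed the filter through the soft-matrix libraries alone, as did IFI44L, so a gene this low on the stiff matrix could be tested only where it was higher on the soft one. The count of 1 became 0 in the fit of the 4 day 4 libraries alone, where no gene was called. It was also 0 with at least 10 counts in every library, where 10 genes of the list remained and 27 of 12867 genes were called lower. With DESeq2 it was 4, against 126 of 14570 genes called lower. Leaving out either stiff-matrix library of day 4 raised the count, and leaving out either soft-matrix library of either day lowered it. The number of all genes called lower moved in the same directions. In the mean of both days ICAM1, an adhesion molecule, was called as well, with -1.31 (SE 0.159, edgeR adjusted p = 0.02). TAP1, the peptide transporter of antigen presentation, gave -0.25 and -0.56 at the 2 days and was not called. A filter on the 4 stiff-matrix libraries alone kept 30 type I and 10 interferon gamma targets. The counts called, the counts below 0 and the medians of both lists thus include genes that passed only with the soft-matrix libraries present. With at least 10 counts in every library, the day 4 medians were -1.16 for 30 type I and -0.36 for 10 interferon gamma targets, all below 0.

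On the soft matrix 17 type I target genes rose between the days and 0 fell, with a median of 0.86, while on the stiff matrix 4 rose and 1 fell, with a median of 0.11. The stiff-matrix shares lie near or under the 14% and 13.7% of all genes called in these directions. The count of 17 became 3 without replicate 1 and 10 without replicate 2 of the soft matrix at day 2, 10 without either soft-matrix library of day 4, and 24 and 23 without either stiff-matrix library of day 4. The number of all genes called higher on the soft matrix moved in the same directions. On the stiff matrix, more list genes were called in both directions without either of its day 4 libraries. Fewer were called higher without either of its day 2 libraries. The same held for all genes, so these moves were not particular to the list. The list's median on the stiff matrix stayed between 0.03 and 0.19 in these 4 fits. EPSTI1 rose by 1.92 and IFIT1 by 1.47 on the soft matrix (edgeR adjusted p = 0.00237 and 0.00157). The difference between the 2 time courses is the interaction above, in which none of the 34 was called by edgeR and 12 were below 0 at an unadjusted p under 0.05. The soft-matrix libraries of day 4 enter both this count and the stiffness comparison of that day.

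**Figure D5:**
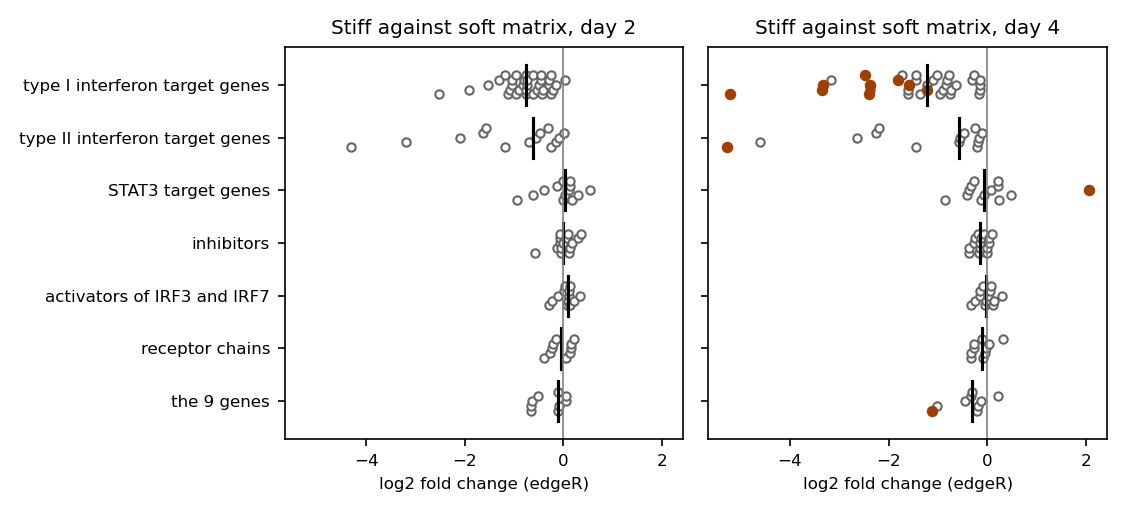
Log2 fold changes, stiff against soft matrix, of the tested genes in each list at day 2 (left) and day 4 (right), 1 point per gene, filled where the edgeR adjusted p was under 0.05, with a bar at the list's median. The 2 interferon target lists lie mostly below 0 at both days, while the receptor, inhibitor and activator lists centre near 0.

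The promoters of these lists were searched for the same 2 motifs. Of 29 type I targets with a RefSeq entry, 16 (55.2%) held the response element core and 6 the gamma-activated motif. Of 12 interferon gamma targets, 6 held the core and 2 the gamma-activated motif.

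Over the 8 libraries, which fall into 4 conditions and share these with every gene, IRF1 and IRF9 were the most alike pair of members, with a Pearson r of log2 CPM of 0.976. IRF3 and JAK1 were the most opposed, with r = -0.947, and JAK1 and JAK2 gave 0.803. IRF7 and SOCS1, both lower at day 4, gave 0.893. These are descriptions over 8 points, and the last 3 pairs hold genes that differed widely between the stiff-matrix replicates of day 4.

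Outside the 9 genes, TRAF1, an adaptor of TNF receptor signalling, was most like IRF1 (r = 0.996), followed by IL4I1 (r = 0.985). IRF9 was closest to MMP9, a matrix-degrading protease, with r = 0.991, and then to TRAF1 with 0.989. STAT2 had the loosest match, KIAA1407 at 0.958 and LINC01138 at 0.944. STAT3 was closest to SEL1L3 (0.987) and WDR19 (0.983), IRF7 to MIR210HG (0.984) and ABCD4 (0.975), and SOCS1 to NLRX1 (0.991) and SHISA4 (0.987).

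The genes that differed between the stiff-matrix replicates of day 4 had close matches too. JAK1 was nearest to YAP1 (0.994), a coactivator of the Hippo pathway, and SP1 (0.991), JAK2 to TLK1 (0.992) and ATP2B1 (0.980), and IRF3 to VEGFB (0.992) and SRA1 (0.992). Among the 20 genes nearest to each member, 3 of those of IRF9, 1 of IRF1 and 1 of STAT2 were on the interferon target lists, and none for the other 6 members. The lists make up 40 of the 12156 genes compared, or 0.329%.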

How the data were processed

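RNA-seq of 8 LX-2 libraries was analysed. The authors trimmed reads with Trim Galore, mapped them to hg19 with STAR 2.7.1a and deposited raw counts per gene from HTSeq. The gene annotation and strand setting are not given in the sources used here. They also deposited FPKM, which dividing counts by FPKM in 11046 genes showed to be scaled by median-of-ratios size factors, up to 15.6% away from scaling by totals.

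The members and gene lists were chosen with earlier results of these data known. Genes were filtered by filterByExpr, scaled by TMM (factors 0.870 to 1.08) and fitted with edgeR 4.0.16 in R 4.3.3 as 4 conditions over 8 libraries (common dispersion 0.0281, prior 3.86 degrees of freedom). A gene counted as called when its p, adjusted by Benjamini-Hochberg, was under 0.05. All 9 members were named. List genes past this threshold and the 3 largest changes of lists given by count could be named, and some called over time are given by count alone. Named too were, per member, the 2 genes most correlated in log2 CPM (prior count 2) among genes averaging 1 or more on that scale. Genes named by their role though not called (ISG15, TAP1, TBK1, IKBKE) and the ligands were picked after values were seen. The marker lists cover stellate cells, leukocytes, hepatocytes, endothelium and epithelium. In the last 2, TEK and KRT7 respectively were the 1 of 4 genes at 1 CPM or more.

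Alternatives were DESeq2 1.42.0, RLE or no scaling, no filter (at least 1 count) or at least 10 counts in every library, the 4 libraries alone, a replicate block, limma 3.58.1 on log2(FPKM + 1) or log2(FPKM + 0.1) for genes of at least 1 FPKM in 2 libraries (the former also unfiltered), and each library left out. A crossed block, voom with quality weights and the target lists under each alternative were added after seeing the data. On simulated counts for the day 4 comparison, 168 of 200 genes changed by 2 on the log2 scale among 14347 were recovered, with 5 false calls. That change is larger than any member showed between matrices, and recovery of smaller changes was not measured. Standard errors were derived from each log2 fold change and its F statistic.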

Additional observations from a re-analysis of the deposited data

How the results depend on the processing

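With 2 libraries per condition the count of called members moved with the settings. It was 0 at day 2, 1 at day 4, 2 for the mean of both days, 0 for the change of the effect, and 1 for time on each matrix. DESeq2 called 2 members at day 4, and leaving out scaling factors gave 2 for time on the stiff matrix, against 3618 of 14570 genes. The fit of 4 libraries alone called 4 at day 2, against 667 of 14290 genes, and 0 at day 4, where no gene was called. For time it called 3 on the soft matrix, against 7261 of 14331 genes, and 0 on the stiff, where no gene was called. It cannot be made for the mean of both days or the change of the effect. Limma without a filter called 0 at day 4, 1 for the mean and 0 for time on the stiff matrix, against 38, 143 and 2796 of 25369 genes. With voom quality weights, added after seeing the data, the counts were 3 at day 2, 0 at day 4 and 1 for the mean. All genes called there numbered 187, 4 and 29 of 14570. For time the voom counts were 3 on the soft and 0 on the stiff matrix, against 7152 and 2024 genes. Leaving out 1 library at a time, the lone library of a condition being assumed to vary like the other groups, gave 0 to 2 at day 2, 0 to 5 at day 4, 0 to 5 for the mean, 0 to 3 for the change, 0 to 3 for time on the soft and 0 to 4 on the stiff matrix. Without replicate 1 of the stiff matrix at day 4, 4676 genes were called at day 4, and without replicate 2, 545, against 36. DESeq2 called 180. SOCS1 on the soft matrix was called in all 12 other settings and in 6 of 8 fits with a library left out (adjusted p up to 0.0849), and on the stiff matrix in 8 of 12 and 4 of 8.

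The replicate block used numbers that do not pair the libraries: the deviations of same-numbered libraries correlated at -0.0358 at day 2 and -0.49 at day 4. With the block 0 members were called at day 4 (IRF1 adjusted p = 0.122), 0 for the mean (IRF1 0.0644, IRF9 0.101) and 0 for time on the stiff matrix (SOCS1 0.057), and the other counts of called members were as without it. With the numbers crossed on the stiff matrix at day 4, the block gave 62 genes called at day 4, 15 higher and 47 lower.

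Values whose sign turned were all of members not called in the main fit. IRF3 over time on the stiff matrix took opposite signs depending on which library was left out. Without scaling factors, which moved the median of all genes to -0.06 at day 2, -0.09 at day 4 and -0.10 for time on the stiff matrix, JAK1 at day 2 became -0.025, JAK2 at day 2 -0.0065, IRF3 in the mean -0.041, IRF1 over time on soft -0.057 and IRF3 over time on stiff -0.0065. The change of the effect for STAT3 became 0.0024 with DESeq2, 0.0022 with RLE and 0.0044 with at least 10 counts, where IRF1 over time on soft was -0.0064. With 1 library left out, the log2 fold changes ranged over -0.24 to 0.029 for STAT2 at day 2, -0.18 to 0.085 for STAT2 and -0.046 to 0.056 for IRF1 over time on soft, and -0.10 to 0.12 for the change of the effect of STAT3. The stiff-matrix replicates of day 4 set the wider ranges at day 4, of -0.77 to 0.21 for JAK1, -0.95 to 0.11 for IRF7, -0.49 to 0.094 for SOCS1 and -0.49 to 0.70 for IRF3. In the mean they were -0.37 to 0.12 for JAK1 and -0.29 to 0.31 for IRF3. For the change of the effect they were -0.81 to 0.18 for JAK1, -0.40 to 0.79 for IRF3 and -0.43 to 0.63 for IRF7. Over time JAK1 ranged from -0.036 to 0.40 on soft and -0.61 to 0.37 on stiff, JAK2 from -0.32 to 0.22 on stiff and IRF3 from -0.57 to 0.63 on stiff. The cause of these moves was not tested.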
